A study of Mus musculus with 6 samples.

Results

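The genes described here are 43 genes of the extracellular matrix and of the cells that make it. They comprise 18 collagen chain genes, the lysyl oxidases that cross-link collagen, proteoglycans, elastic fibre and basement membrane proteins, and markers of hepatic stellate cells and myofibroblasts. They were taken by name, each represented by its transcript of highest mean. All 43 were found among the 23405 genes matched, and 42 were among the 15625 genes with enough reads to be tested.

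The samples were F4/80+ cells, a selection for mouse macrophages, taken by magnetic sorting from digested livers of male C57BL/6 mice. The mice were 3 months old, ate normal chow and had all received carbon tetrachloride (CCl4) by intraperitoneal injection to induce liver fibrosis. Polyadenylated RNA was sequenced in 3 libraries labelled WT+CCl4 and 3 labelled KO+CCl4, so that genotype is the only label that differs and no uninjured liver is included. The labels name neither the deleted gene nor a promoter that drives its deletion, and they do not say that each library is a separate mouse, so p-values measure the spread between these libraries.

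Scar matrix in the liver is laid down mainly by hepatic stellate cells, the vitamin A-storing pericytes of the sinusoids, which turn into contractile myofibroblasts after injury, and by portal fibroblasts. Fibrillar collagens of types I, III and V assemble into the fibres of the scar, while type IV collagen, laminins and nidogen form basement membrane sheets. Macrophages influence these cells through signals and matrix-degrading enzymes and are not regarded as a main source of fibrillar collagen.

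Reads per library, counting 1 transcript per gene, ranged from 15030947 to 22166360 in WT and from 10793260 to 19167957 in KO. The 43 genes took 0.312% to 0.398% of the reads in WT and 0.409% to 0.692% in KO. Adgre1, which encodes F4/80, stood at 6208 ± 1613 normalised counts (mean ± SD, n = 3) in WT and 5254 ± 1233 in KO (limma adjusted p = 0.706). Normalised counts are reads scaled by the authors with a single factor for each library. KO replicate 1 stood apart from the other libraries on the second principal component, which held 23.3% of the variance.

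The stretches upstream of 4 collagen genes whose KO libraries all lay above the WT libraries are shown first. Of these genes only Col5a3 passed the test given below, and no stretch was at hand for Col1a1, which also passed. Further genes without overlap had a stretch that held annotated UTR, and these are not shown. Each is the 250 bases before the gene's start in RefSeq on GRCm38.p6, read 5′ to 3′ on the gene's strand. Those of Col3a1, at chr1:45311288-45311537 (+), Col5a1, at chr2:27886175-27886424 (+), Col5a3, at chr9:20815068-20815317 (-), and Col16a1, at chr4:130047590-130047839 (+), hold no annotated UTR. Capitals mark matches to the letters of the TATA box (TATAAA), the CCAAT box (by its own letters) and the GC box (GGGCGG), found on either strand. Whether any match works as such a box was not tested.
Col3a1: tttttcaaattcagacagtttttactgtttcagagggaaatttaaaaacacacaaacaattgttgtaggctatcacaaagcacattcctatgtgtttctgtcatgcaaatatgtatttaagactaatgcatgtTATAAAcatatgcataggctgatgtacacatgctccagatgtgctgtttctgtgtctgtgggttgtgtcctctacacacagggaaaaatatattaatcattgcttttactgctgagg
Col5a1: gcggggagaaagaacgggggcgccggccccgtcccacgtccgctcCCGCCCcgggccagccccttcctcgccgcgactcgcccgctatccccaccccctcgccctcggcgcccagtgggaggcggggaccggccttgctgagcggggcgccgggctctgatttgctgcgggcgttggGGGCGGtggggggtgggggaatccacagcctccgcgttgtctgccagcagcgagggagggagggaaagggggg
Col5a3: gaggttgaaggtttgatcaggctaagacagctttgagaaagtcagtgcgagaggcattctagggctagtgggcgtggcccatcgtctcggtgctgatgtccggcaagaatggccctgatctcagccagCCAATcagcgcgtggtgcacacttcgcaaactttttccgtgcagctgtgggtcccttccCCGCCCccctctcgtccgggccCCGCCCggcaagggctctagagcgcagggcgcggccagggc
Col16a1: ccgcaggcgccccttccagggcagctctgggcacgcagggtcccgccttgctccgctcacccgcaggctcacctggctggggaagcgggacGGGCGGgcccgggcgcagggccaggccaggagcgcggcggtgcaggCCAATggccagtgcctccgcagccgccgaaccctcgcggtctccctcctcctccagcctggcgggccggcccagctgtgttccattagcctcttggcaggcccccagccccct

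The Col3a1 window holds TATAAA 117 to 112 bases before the start and none of the other letters. Col5a3 and Col16a1 each have a CCAAT, and Col5a1, Col5a3 and Col16a1 have GGGCGG or its reverse complement CCGCCC. Of the 43 genes 28 had a window in the RefSeq table, 33 windows in all. GGGCGG occurred in 63.6% of these windows against 32.7% of the 32817 windows of all genes, CCAAT in 33.3% against 33.8%, and TATAAA in 12.1% against 12.4%. The CArG box, the site of serum response factor, occurred in 0 of the 33 windows and in 1.47% of all windows. The Col5a1 window overlaps the gene 2810430I11Rik and the Col16a1 window overlaps Gm12963.

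Per kb of transcript, the most abundant of the 43 genes were Sparc, at 3836 normalised counts per kb over the 6 libraries, Dcn at 3061, Col3a1 at 2092, Bgn at 1514 and Col1a2 at 1181. Sparc encodes a collagen-binding matricellular protein, and Dcn and Bgn encode the small proteoglycans decorin and biglycan. Lowest were Lrat at 7.29, Tnc at 6.00, Col12a1 at 5.73 and Col8a1 at 1.08. Adgre1 stood at 1769.9 on the same scale, so in the mean over the 6 libraries the 3 highest matrix genes were above the gene for the sorting antigen. For Col3a1 this held in the KO mean (2654 against 1623 for Adgre1) and not in the WT mean (1530 against 1917). The 2 macrophage markers of highest mean count, Csf1r at 5191 and Cd5l at 7392, stood above all 43 genes in the mean per kb. The plot of levels per kb shows that the libraries of the 2 genotypes overlapped for most of the 43 genes.

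**Figure D1:**
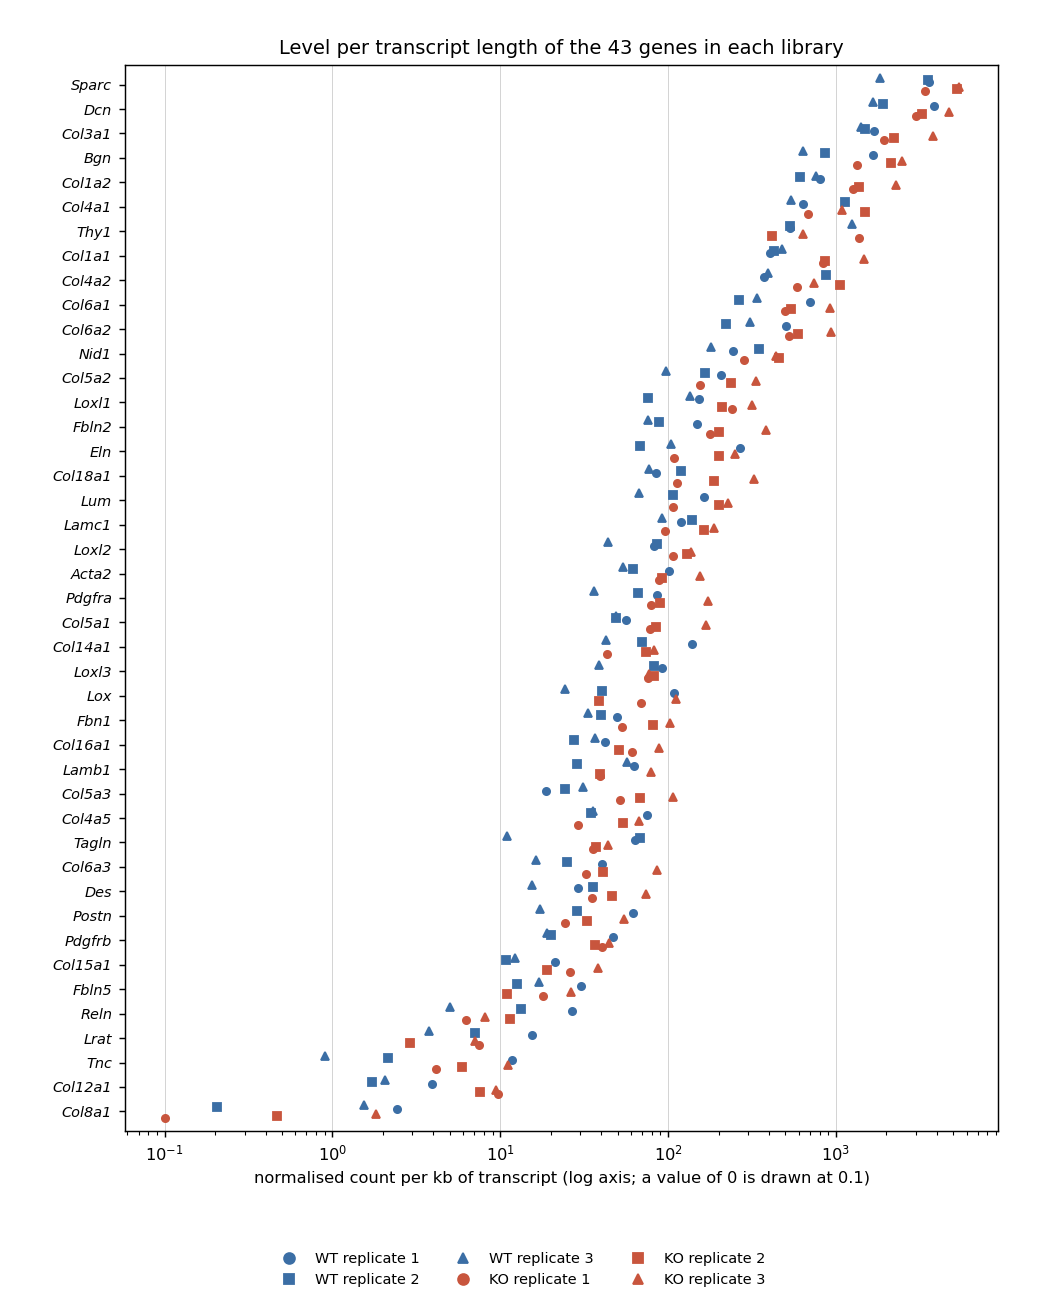
Normalised count per kb of transcript (log axis) of the 43 genes, sorted by mean, with 1 point per library, WT in blue and KO in red, and the shape giving the replicate number. Sparc, Dcn and Col3a1 are at the top and Col8a1, with 0 reads in KO replicate 1 (drawn at 0.1), at the bottom.

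Across the 42 tested genes, 2 rose in KO and 0 fell: Col1a1, which encodes the alpha-1 chain of type I collagen, by 2.33-fold and Col5a3, which encodes the alpha-3 chain of type V collagen, by 2.96-fold (limma, adjusted p under 0.05 over all 15625 genes). Of all genes tested 2.44% passed this test, 2.09% as higher and 0.352% as lower in KO. The log2 change, KO minus WT, was above 0 for 38 of the 42, against 54.2% of all genes, and its median was 0.67 against 0.05. The 3 KO libraries all lay above the 3 WT libraries for 12 of the 42, against 13.7% of all genes, and all below for 0, against 9.24%. An unadjusted p under 0.05 was found for 18, all higher in KO, against 12.1% of all genes. In bulk RNA, more cells of a type and more RNA per cell cannot be told apart. The calls of both genes were lost in 5 of the 6 fits that left out 1 library, all but the fit without KO replicate 1, and edgeR's quasi-likelihood test on the recovered reads called 0 of the 42 (against 1.79% of all genes), with adjusted p = 0.055 for Col1a1 and 0.0529 for Col5a3. DESeq2 on these reads called 10, against 9.19% of all genes: Col1a1, Col1a2, Col5a1, Col5a3, Col18a1, Col12a1, Col16a1, Loxl1, Fbn1 and Fbln2.

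**Figure D2:**
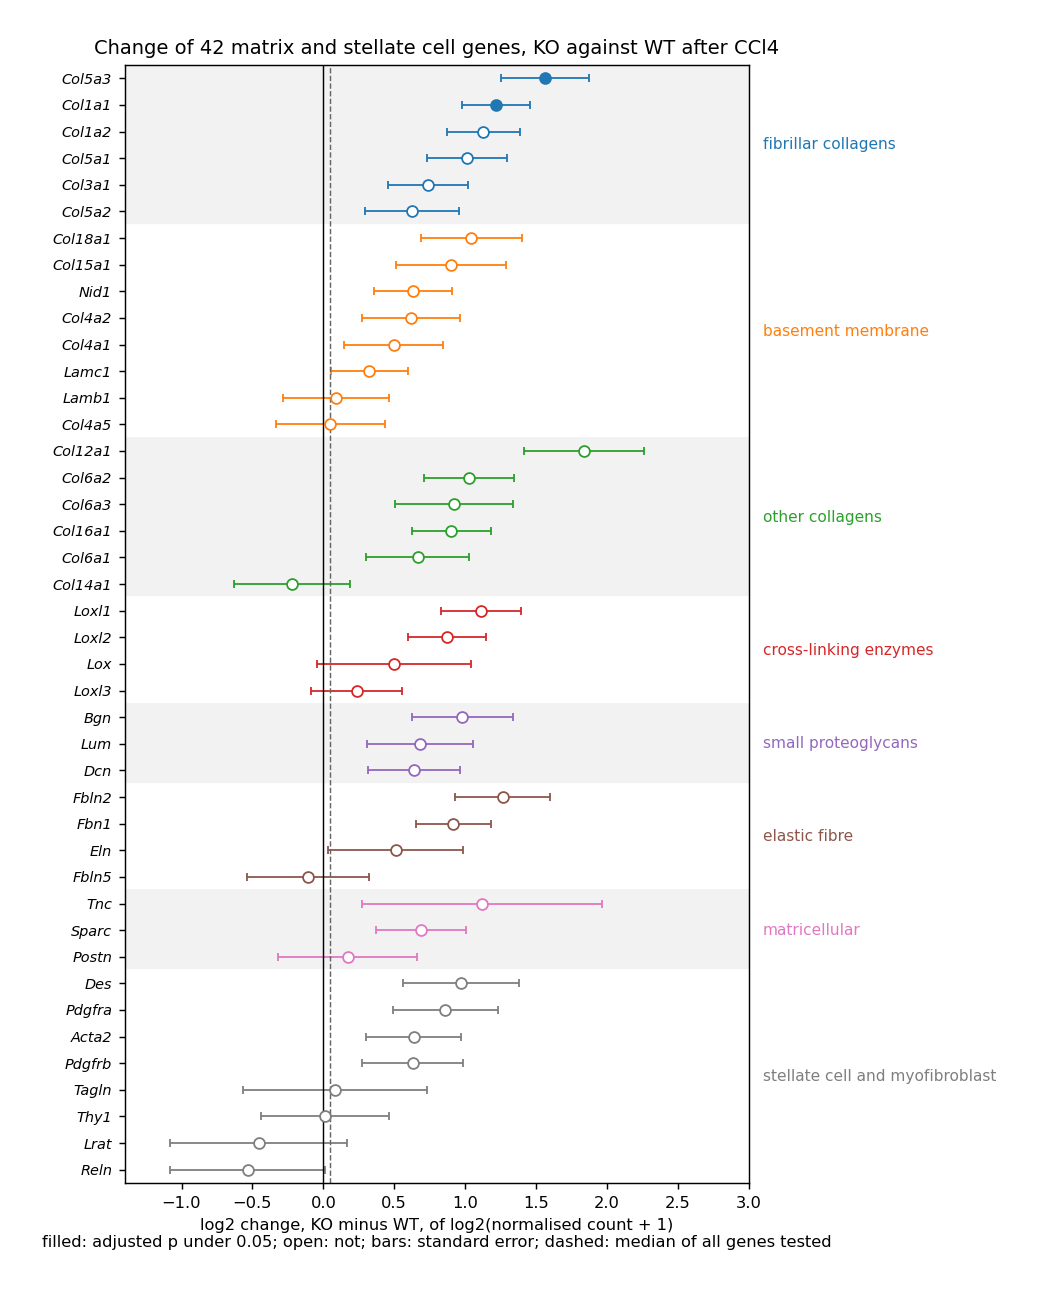
Log2 change, KO minus WT, of log2(normalised count + 1) with its standard error for the 42 tested genes, grouped by role, with filled points for an adjusted p under 0.05 and a dashed line at the median of all genes tested. Col1a1 and Col5a3 are the filled points, and 4 genes lie below 0.

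The fibrillar collagens held both genes that rose, and all 6 of them had a log2 change above 0, with a median of 1.07. Col1a1 (ENSMUSG00000001506, chr11:94936224-94953042 on GRCm38) stood at 2405, 2543 and 2844 normalised counts in WT replicates 1, 2 and 3 and at 4949, 5103 and 8687 in KO replicates 1, 2 and 3. The groups did not overlap, and KO replicate 3 was well above the other KO libraries. The log2 change was 1.22 (SE 0.24, limma adjusted p = 0.0403). Without each of the 5 libraries whose removal ended the call, the adjusted p was 0.128 (WT replicate 1), 0.0718 (WT replicate 2), 0.0649 (WT replicate 3), 0.0852 (KO replicate 2) and 0.113 (KO replicate 3).

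Col5a3 (ENSMUSG00000004098, chr9:20770050-20815067), whose upstream sequence is shown above, was far less abundant. Its values were 115, 149 and 191 in WT and 317, 417 and 651 in KO, so the highest WT library was below the lowest KO library. The log2 change was 1.56 (SE 0.31, limma adjusted p = 0.0409). Without WT replicates 1, 2 and 3 in turn the adjusted p was 0.123, 0.0665 and 0.0508, and without KO replicates 2 and 3 it was 0.113 and 0.163.

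Col1a2 (chr6:4504814-4541544), the partner chain of Col1a1 in type I collagen, had 4321, 3246 and 4089 normalised counts in WT and 6724, 7311 and 12212 in KO. These groups did not overlap either, with a log2 change of 1.13 (standard error 0.26, limma adjusted p = 0.0565), which did not pass the test. Col3a1 (chr1:45311538-45349706), the single chain of type III collagen and the collagen gene of highest level per kb, had 9411, 8276 and 7849 in WT and 10799.7, 12403 and 21105 in KO. The lowest KO library was only just above the highest WT library, and the log2 change was 0.74 (SE 0.28, limma adjusted p = 0.207).

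The remaining fibrillar genes encode the other type V chains, which set fibre diameter. Col5a1 (chr2:27886425-28039514) had 473, 413 and 414 normalised counts in WT and 658, 711 and 1419.8 in KO, with no overlap and a log2 change of 1.01 (limma adjusted p = 0.0973). Col5a2 (chr1:45374321-45503282), the neighbour of Col3a1 on chromosome 1, had 1376, 1098 and 644 in WT and 1024, 1579.9 and 2212 in KO. It was the fibrillar gene whose groups overlapped, with KO replicate 1 below 2 of the WT libraries (log2 change 0.63, limma adjusted p = 0.376).

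**Figure D3:**
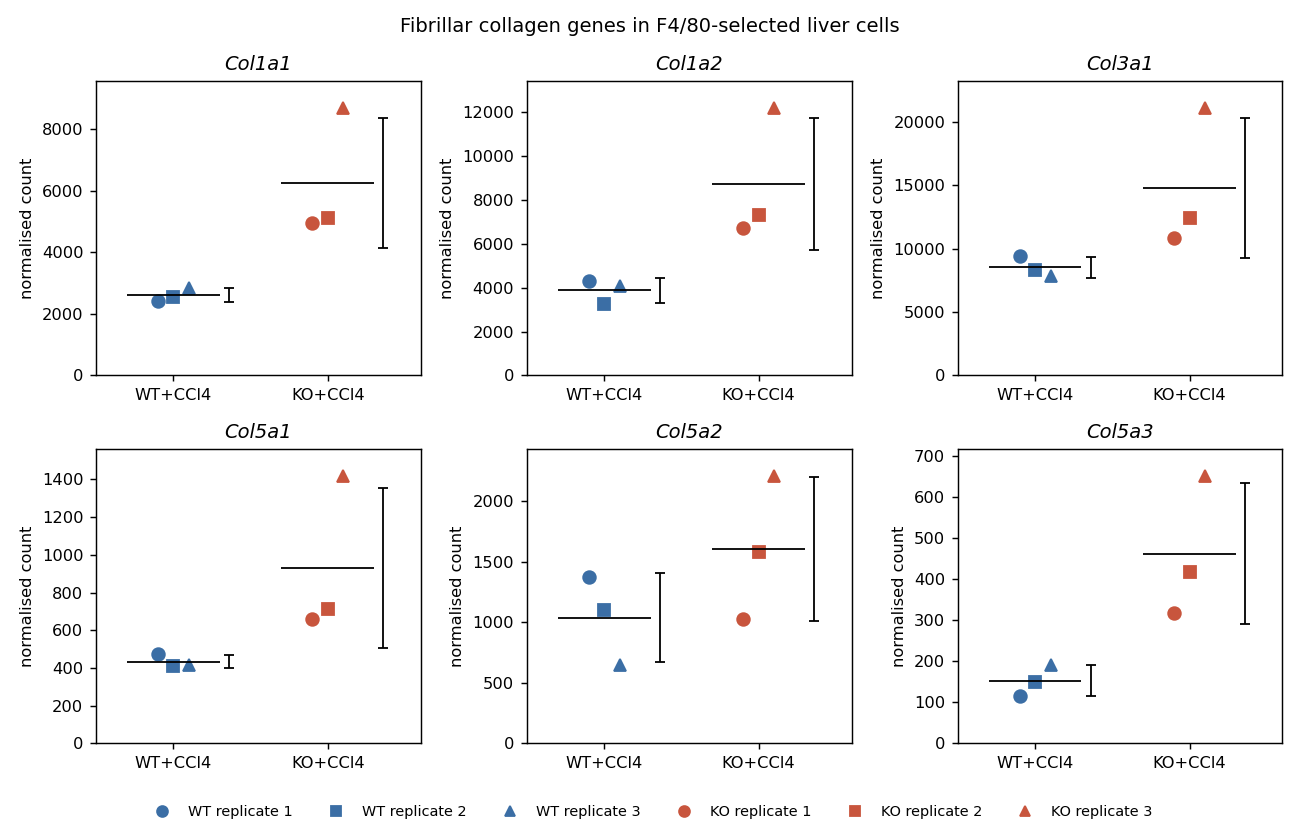
Normalised counts of the 6 fibrillar collagen genes in each library, with horizontal lines at the group means and error bars of 1 SD (n = 3). KO replicate 3 is the highest library in every panel, and the groups overlap for Col5a2.

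Of the 8 basement membrane genes 0 passed the limma test and all 8 lay above 0 (median log2 change 0.56). The groups overlapped for each of them, and 3 were higher at an unadjusted p under 0.05, against 12.1% of all genes. Col4a1 and Col4a2 encode the chains of the common form of type IV collagen and lie head to head on chromosome 8, with RefSeq starts at 11312826 on the minus strand and 11312805 on the plus strand, so that their first exons share 22 bases. Col4a1 had 4239, 7544 and 3571 normalised counts in WT and 4498, 9917 and 7213 in KO, and Col4a2 had 2405, 5631 and 2527 in WT and 3793, 6784 and 4802 in KO. WT replicate 2 was the highest WT library for both genes and KO replicate 2 the highest KO library. The log2 changes were 0.50 (limma adjusted p = 0.514) and 0.62 (limma adjusted p = 0.398).

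The largest difference in this group was that of Col18a1, a basement membrane collagen from whose end endostatin is cut. It had 473, 672 and 429.6 normalised counts in WT and 629, 1047 and 1822 in KO, with KO replicate 1 below WT replicate 2 and KO replicate 3 far above the rest (log2 change 1.04, SE 0.35, limma adjusted p = 0.155). Col15a1, a related collagen, had 110.2, 55.7 and 63.5 in WT and 134, 97.7 and 197 in KO (log2 change 0.90, limma adjusted p = 0.259). Both had their highest value in KO replicate 3.

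Nid1, the linker nidogen, had 1491, 2117 and 1097 normalised counts in WT and 1728, 2790.4 and 2687 in KO, with KO replicate 1 inside the WT range (log2 change 0.63, limma adjusted p = 0.264). The laminin chain genes Lamc1 and Lamb1 had log2 changes of 0.32 and 0.09. Lamc1 had 911, 1053 and 697 in WT and 730.0, 1251 and 1431 in KO, and Lamb1 had 362, 165 and 331 in WT and 226, 229 and 458 in KO. For Lamb1 the lowest library was WT replicate 2 and the highest KO replicate 3. Col4a5, a chain of a rarer type IV collagen, had 491, 228 and 234 in WT and 189, 350.3 and 436 in KO, with the highest value in WT replicate 1. Its log2 change of 0.05 turned to -0.0076 with TMM factors.

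Of the 6 tested genes of other collagen types, 0 passed the limma test. An unadjusted p under 0.05 was found for 3, all higher in KO, against 12.1% of all genes. There were 5 above 0, against 54.2% of all genes, and 3 with all KO libraries above all WT libraries, against 13.7%. Col12a1, of a collagen that coats fibrils, had the largest log2 change of the 42 genes at 1.83 (SE 0.42, limma adjusted p = 0.0569). It had 45.3, 20.0 and 23.6 normalised counts in WT and 112, 87.0 and 108 in KO, few in both groups. Its second transcript had 28.8, 11.6 and 13.5 in WT and 61.1, 77.4 and 92.2 in KO. Isoforms can count the same reads, so these values are not a separate measurement. Col14a1, of another collagen of this class, had 891, 453 and 276 in WT and 280.1, 474 and 530.2 in KO. The lowest value was that of WT replicate 3 and the highest that of WT replicate 1, with a log2 change of -0.22 (limma adjusted p = 0.839).

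Col6a1, Col6a2 and Col6a3 encode the chains of the beaded filaments of type VI collagen. Col6a2 had 1982, 874 and 1220.2 normalised counts in WT and 2063, 2357 and 3706 in KO, without overlap (log2 change 1.03, limma adjusted p = 0.122). Col6a1 had 2865, 1086 and 1391 in WT and 2047, 2223 and 3796 in KO, where WT replicate 1 lay above 2 of the KO libraries (log2 change 0.67, limma adjusted p = 0.384). Col6a3 had 365, 226 and 147 in WT and 291, 369 and 774 in KO, with overlap (log2 change 0.92, limma adjusted p = 0.284). Col16a1, a further fibril-associated collagen, had 218, 143 and 190.4 in WT and 319, 267 and 460.0 in KO without overlap (log2 change 0.90, limma adjusted p = 0.120). Col8a1 was not tested, with 12, 1 and 14 reads in WT and 0, 2 and 11 in KO.

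The cross-linking enzymes oxidise lysines of collagen and elastin, and by limma 0 of 4 passed the test, with a median log2 change of 0.68. An unadjusted p under 0.05 was found for 2, both higher in KO, against 12.1% of all genes. Loxl1 had 505, 251 and 444 normalised counts in WT and 796, 695 and 1038 in KO (log2 change 1.11, SE 0.28, limma adjusted p = 0.0749), and Loxl2 had 438, 457 and 234 in WT and 566, 693 and 733 in KO (log2 change 0.87, limma adjusted p = 0.127). For both genes all KO libraries lay above all WT libraries, as they did for 13.7% of all genes. Lox, the founding enzyme of the family, had 486, 179.6 and 108 in WT and 308, 174 and 499.8 in KO, a spread within each group larger than the difference between them (log2 change 0.50, limma adjusted p = 0.695). Loxl3 had 378, 340.2 and 158 in WT and 313, 339.6 and 314 in KO (log2 change 0.24, limma adjusted p = 0.765), with the KO libraries inside the WT range, and 11.6% of its exon bases overlap Htra2 on the opposite strand.

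Among the small leucine-rich proteoglycans, which bind collagen fibrils, 0 of 3 passed the limma test and all 3 were above 0. At an unadjusted p under 0.05 there was 1, higher in KO, against 12.1% of all genes. Bgn had 4012, 2084 and 1542 normalised counts in WT and 3239, 5145 and 5956 in KO (log2 change 0.98, limma adjusted p = 0.182). Dcn had 6762, 3332 and 2929 in WT and 5271, 5746 and 8245 in KO (log2 change 0.64, limma adjusted p = 0.349), and Lum, which encodes lumican, had 399.7, 263 and 164 in WT and 262, 489.7 and 556 in KO (log2 change 0.68, limma adjusted p = 0.389). For each of the 3 genes WT replicate 1 was the highest WT library and overlapped the KO range.

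Of 4 elastic fibre genes 0 passed the limma test and 3 were above 0. At an unadjusted p under 0.05 there were 2, both higher in KO, against 12.1% of all genes. Fbln2, a fibulin of portal fibroblasts and matrix, had 712, 422 and 361 normalised counts in WT and 848, 967 and 1838 in KO (log2 change 1.26, SE 0.34, limma adjusted p = 0.0842), and Fbn1, the microfibril protein fibrillin, had 590.3, 478 and 399 in WT and 638, 967 and 1229 in KO (log2 change 0.92, limma adjusted p = 0.103). For both genes the KO libraries all lay above the WT libraries, against 13.7% of all genes. However, 20.1% of the exon bases of Fbn1 overlap Gm9913 on the opposite strand. Eln, the elastin gene, had 1033, 263 and 403 in WT and 417, 779 and 971 in KO, with WT replicate 1 the highest of the 6 (log2 change 0.51, limma adjusted p = 0.640). Fbln5, needed for elastic fibre assembly, had 177, 73.5 and 98.8 in WT and 104, 64.3 and 153 in KO (log2 change -0.11, limma adjusted p = 0.932).

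The matricellular genes, whose products modulate cell contact with matrix, also gave 0 calls of 3 by limma, with 0 at an unadjusted p under 0.05. Sparc had 8283, 8123 and 4183 normalised counts in WT and 7851, 12108 and 12394 in KO (log2 change 0.69, limma adjusted p = 0.293), with WT replicate 3 the lowest library. Postn, the periostin gene, had 197, 91.4 and 55.0 in WT and 77.5, 105 and 175 in KO (log2 change 0.17, limma adjusted p = 0.900). Tnc, the tenascin-C gene, ranged from 6.18 to 80.4 within WT alone and had 28.3, 40.5 and 76.1 in KO (log2 change 1.12, SE 0.85, limma adjusted p = 0.555).

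Of the 8 stellate cell and myofibroblast markers 0 passed the limma test. An unadjusted p under 0.05 was found for 2, both higher in KO, against 12.1% of all genes. Of the 8 markers 6 were above 0 and the groups overlapped for each gene. Their median log2 change was 0.36 beside 1.07 for the fibrillar collagens, a difference that was not tested. Des, the intermediate filament desmin of stellate cells, had 87.6, 108 and 46.6 normalised counts in WT and 107, 141 and 224 in KO (log2 change 0.97, limma adjusted p = 0.253). The growth factor receptor genes Pdgfra, of fibroblasts, and Pdgfrb, of pericytes and activated stellate cells, had log2 changes of 0.86 (limma adjusted p = 0.262) and 0.63 (limma adjusted p = 0.408). Pdgfra had 584, 452 and 247 in WT and 541, 610.0 and 1181 in KO, and Pdgfrb had 252, 108 and 102 in WT and 218, 199 and 241 in KO. WT replicate 1 lay above at least 1 KO library for both receptors.

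Acta2, the smooth muscle actin of myofibroblasts, had 205, 126 and 109 normalised counts in WT and 179, 188 and 317 in KO (log2 change 0.64, limma adjusted p = 0.366). Tagln, another contractile protein gene, had 102, 109 and 17.4 in WT and 56.6, 59.6 and 70.2 in KO. WT replicate 3 was far below the other 5 libraries, and the log2 change of 0.08 turned to -0.32 with edgeR and with DESeq2. The exon bases of Tagln overlap the antisense gene Gm48529 over 62.4% of their length, and whether reads were counted by strand is not known from the sources.

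The quiescent stellate cell genes Lrat, which makes retinyl esters for vitamin A storage, and Reln, which encodes reelin, had log2 changes of -0.46 (limma adjusted p = 0.766) and -0.53 (limma adjusted p = 0.674). Lrat had 82.4, 37.8 and 20.2 normalised counts in WT and 40.2, 15.5 and 38.1 in KO, and Reln had 312, 155 and 59.0 in WT and 73.0, 135 and 95.6 in KO. WT replicate 1 was the highest library for both. Thy1, a surface protein of portal fibroblasts that T cells also carry, had 919, 929 and 2165 in WT and 2381, 722 and 1104 in KO. It was high in WT replicate 3 and KO replicate 1, the libraries with the highest summed lymphocyte markers of their groups (20105 and 19855), a list that does not hold Thy1, and the part of lymphocytes in the Thy1 values was not tested. Its log2 change of 0.01 turned to -0.043 with TMM factors.

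The same libraries stood high or low for many of the 42 genes. KO replicate 3 was the highest of the 6 libraries for 26 of them (61.9%, against 16.7% of all genes) and the highest KO library for 34, and KO replicate 1 was the lowest KO library for 33. WT replicate 1 was the highest WT library for 31, and WT replicate 3 was the lowest of the 6 for 25 and the highest for 0. WT replicate 3 also differed as a library. Mitochondrially encoded genes took 6.19% of its reads, against 16.2% to 27.5% in the others. Its normalised counts summed over all tested genes were the lowest, 1.24e+07 against 1.53e+07 to 1.74e+07. The part of these differences in the matrix values was not tested. The mean log2 value of the fibrillar collagens, less the WT mean, was 0.07, -0.04 and -0.04 in WT and 0.64, 0.89 and 1.62 in KO, so the WT libraries were close together. That of the matricellular genes was 1.09, -0.08 and -1.01 in WT and 0.13, 0.65 and 1.20 in KO, a range within WT nearly as wide as that over the 6 libraries. For the stellate cell and myofibroblast genes it was 0.58, 0.08 and -0.66 in WT and 0.23, 0.03 and 0.56 in KO.

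Markers of other liver cells were measured beside these genes. Over all genes 2.44% passed the limma test, 1.79% the edgeR test and 9.19% the DESeq2 test, and 54.2% had a log2 change above 0. An unadjusted p under 0.05 with a higher level in KO was found for 12.1%. These shares stand beside the counts of each marker list. Of 12 endothelial markers 5 rose by limma, against 1 by edgeR and 8 by DESeq2, and all 12 were above 0 (median log2 change 1.37), with a summed level of 28594 to 53927 in WT and 60125 to 118602 in KO. Dnase1l3, of sinusoidal endothelium, rose (log2 change 1.49, limma adjusted p = 0.0471), while Stab2 had 0.91 (limma adjusted p = 0.179). Of 11 hepatocyte markers tested 6 rose by limma, 6 by edgeR and 7 by DESeq2, and all 11 were above 0 (median 2.23, summed level 24196 to 73492 in WT and 92104 to 165974 in KO), with Alb at 1.19 (limma adjusted p = 0.283) and Apoa1 at 2.23 (limma adjusted p = 0.0550). Both lists were higher in each KO library than in each WT library, as the fibrillar collagens were, and the part of these cells in the collagen values was not tested.

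Mesothelial markers, of the liver surface cells that also make matrix, gave 0 calls of 8 by limma, 1 at an unadjusted p under 0.05, with 8 above 0 (median 0.72, summed level 1991 to 6341 in WT and 4385 to 8260.3 in KO, Upk3b 0.81 and Msln 0.90). Their lowest library was WT replicate 2 and their highest KO replicate 3. Cholangiocyte markers gave 0 calls of 7, 3 at an unadjusted p under 0.05, with 7 above 0 (log2 changes of 0.15 to 1.91, summed level 348 to 1222 and 1141 to 1731, Krt19 1.05), and Krt7 averaged 185 ± 85.3 (SD, n = 3) in the WT and 349 ± 111 in the KO libraries. Of 8 vascular smooth muscle markers 3 were tested, with 0 calls, 0 at an unadjusted p under 0.05 and 1 above 0 (median -0.03, summed level 511 to 701 and 475 to 1036, Smtn 0.59 and Mylk -0.33), and Cnn1 was at 0 in 4 libraries.

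Of 12 macrophage markers 0 passed the limma test, 3 had an unadjusted p under 0.05 and 4 were above 0 (median -0.19, summed level 60026 to 138265 in WT and 56236 to 67144 in KO). Csf1r, the receptor for macrophage colony-stimulating factor, had a log2 change of -0.92 (limma adjusted p = 0.127) and Cd5l, of Kupffer cells, -0.67 (limma adjusted p = 0.442). Of the 12 markers 8 lay below 0. Clec4f, also of Kupffer cells, went the other way without overlap of the groups (log2 change 1.12, limma adjusted p = 0.0539). Over the 12 markers the KO libraries all lay below the WT libraries for 2, Csf1r among them, against 9.24% of all genes. They all lay above for 1, Clec4f, against 13.7% of all genes. Lymphocyte markers gave 0 calls of 8, 0 at an unadjusted p under 0.05, with 7 above 0 (median 0.16, summed level 8966 to 20105 and 9542 to 19855, Cd79a 0.26). Erythroid markers gave 0 calls of 5, 4 at an unadjusted p under 0.05, with 5 above 0 (median 3.05, summed level 1728 to 24957 and 23678 to 201408, Hbb-bs 3.21 and Hba-a1 3.43) and were highest in KO replicate 1, the KO library in which most of the matrix genes were lowest. In these 6 lists edgeR called 0 genes and DESeq2 called 3, all macrophage markers, 1 as higher and 2 as lower.

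**Figure D4:**
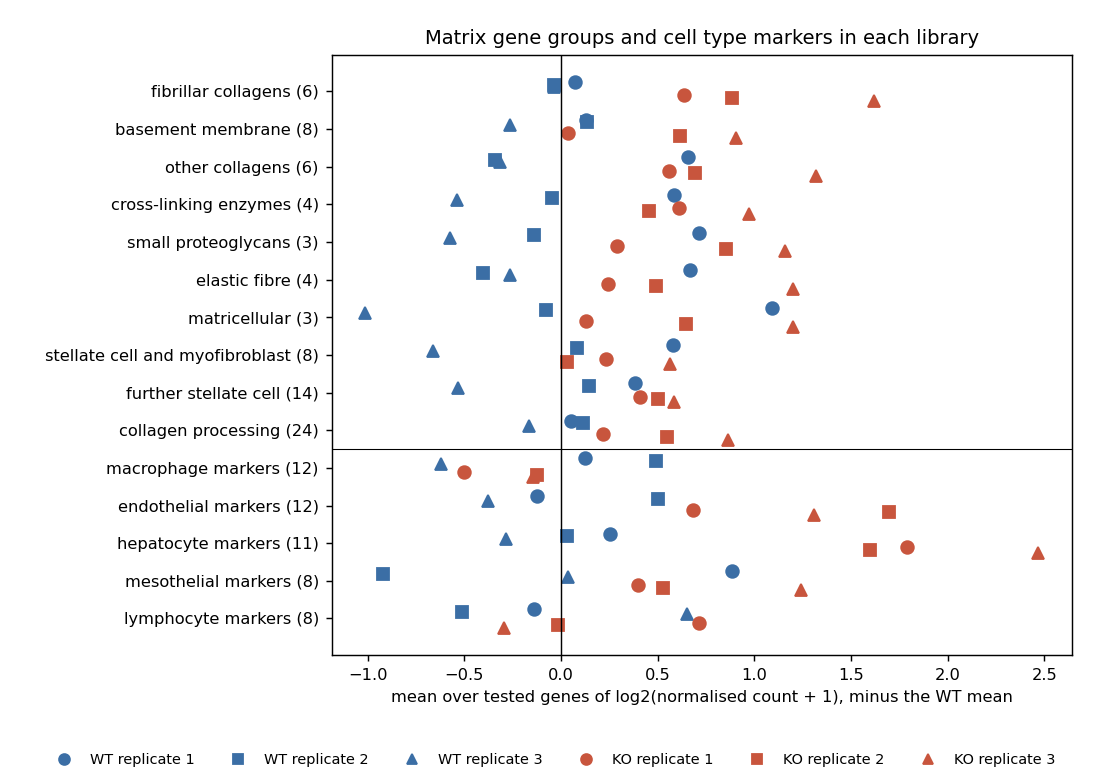
Mean over the tested genes of each group of log2(normalised count + 1), less the WT mean, in each library, with matrix, stellate cell and collagen processing genes above the line, marker lists below it and the number of genes in brackets. The fibrillar collagens, the further stellate cell and collagen processing genes and the endothelial and hepatocyte markers have all KO libraries above all WT libraries, and the other groups do not.

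Ratios of collagen chains per kb were compared within each library, where the library's factor cancels. Of the 6 ratios 4 set chains of the same collagen type against each other, while Col3a1 to Col1a1 and Col3a1 to Col5a2 set chains of different types. They were chosen after the values were seen. Col1a1 to Col1a2 was 0.612 ± 0.103 (SD, n = 3) in WT and 0.645 ± 0.0174 in KO (exact two-sided permutation p = 0.7, adjusted p = 0.8 over the 6 ratios), and Col4a1 to Col4a2 was 1.47 ± 0.221 and 1.35 ± 0.168 (exact permutation p = 0.6, adjusted p = 0.8). Both overlapped between the genotypes.

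For Col3a1 to Col1a1 the ratio was 4.17, 3.47 and 2.94 in the WT libraries and 2.33, 2.59 and 2.59 in the KO libraries, all lower (exact permutation p = 0.1, adjusted p = 0.3). Col6a1 to Col6a2 was 1.39, 1.20 and 1.10 in WT and 0.956, 0.909 and 0.987 in KO, again all lower (exact permutation p = 0.1, adjusted p = 0.3). With 3 libraries against 3 the smallest p that this exact test can give is 0.1, so it cannot pass a threshold of 0.05. Col5a3 to Col5a1 was 0.488 ± 0.149 in WT and 0.699 ± 0.0934 in KO (exact permutation p = 0.2, adjusted p = 0.4), and Col3a1 to Col5a2 was 10.5 ± 3.46 and 11.1 ± 1.63 (exact permutation p = 0.8, adjusted p = 0.8), both with overlap.

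**Figure D5:**
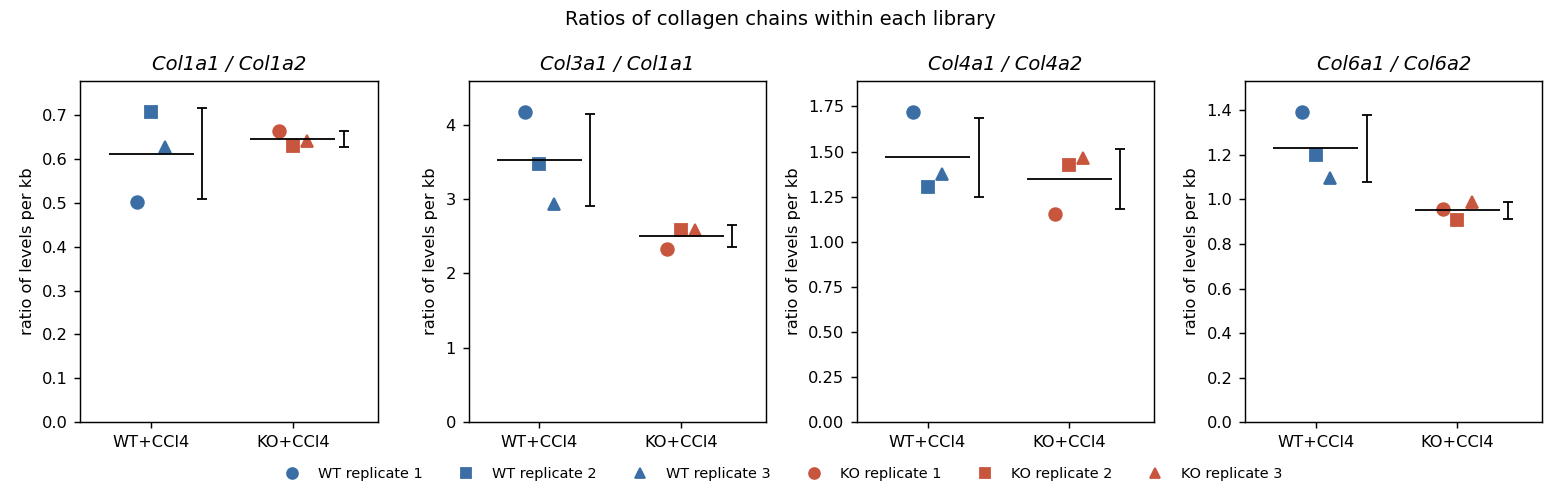
Ratios of collagen chain levels per kb within each library for 4 of the 6 pairs, with horizontal lines at the group means and error bars of 1 SD (n = 3). The KO libraries lie below the WT libraries for Col3a1 to Col1a1 and for Col6a1 to Col6a2 and overlap them for Col1a1 to Col1a2 and Col4a1 to Col4a2.

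Genes that hydroxylate, fold, export and trim procollagen were taken from a separate list of 25, of which 24 were tested. By limma 0 of the 24 passed the test, and edgeR also called 0. At an unadjusted p under 0.05 there were 9, all higher in KO, against 12.1% of all genes. DESeq2 called 6, against 9.19% of all genes. There were 21 above 0 (median log2 change 0.51), and the mean log2 value of the 24, less the WT mean, was 0.05, 0.11 and -0.16 in WT and 0.22, 0.55 and 0.86 in KO, without overlap. For single genes, the KO libraries all lay above the WT libraries for 8, against 13.7% of all genes, and all below for 1, against 9.24%. The latter was the collagen export gene Mia3, named after its values were seen (-0.28, limma adjusted p = 0.416). P4hb, a subunit of prolyl 4-hydroxylase and the list gene of highest normalised count, averaged 8254 ± 1283 normalised counts (SD, n = 3) in the WT and 10481 ± 1762 in the KO libraries (log2 change 0.34, limma adjusted p = 0.488), and Ppib, Plod3 and Colgalt1 had log2 changes of 0.17, 0.17 and -0.06.

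Larger differences in this list were found in genes that were chosen after their values were seen. Pcolce, which speeds the trimming of procollagen by Bmp1, had 525, 457 and 407 normalised counts in WT and 706, 769 and 1039 in KO (log2 change 0.84, limma adjusted p = 0.0677). Crtap, of the prolyl 3-hydroxylation complex, had 414, 462 and 371 in WT and 574, 836 and 929 in KO (log2 change 0.88, limma adjusted p = 0.0727). Neither overlapped between the genotypes and neither passed the test. Fkbp10, a procollagen chaperone, Serpinh1, the collagen chaperone HSP47, and Bmp1 had log2 changes of 1.20, 0.94 and 0.86. Their limma adjusted p was 0.0885, 0.127 and 0.0998, and the groups overlapped for Serpinh1. In the list as a whole the log2 changes ran from -0.47 to 1.57.

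A further list of 16 stellate cell genes gave 0 calls by limma and by edgeR and 1 by DESeq2 among the 14 tested. By DESeq2 9.19% of all genes were called. Of the 14, 1 was higher at an unadjusted p under 0.05 (12.1% of all genes) and 12 were above 0 (54.2%). The median log2 change was 0.36. The summed normalised count of the 16 was 2831 to 4762 in WT and 5713 to 9015 in KO, and the mean log2 value of the 14, less the WT mean, was 0.39, 0.15 and -0.53 in WT and 0.41, 0.50 and 0.58 in KO. The groups overlapped in neither measure, with WT replicate 1 just below KO replicate 1 in the mean. Both separations rested on Ecm1, for with Ecm1 left out KO replicate 1 lies below WT replicate 1 in both measures. The groups overlapped for the 8 stellate cell and myofibroblast genes above, and the difference between the lists was not tested. Ecm1 had the highest normalised count of the list. Ecm1, a secreted matrix protein that hepatocytes also make, had 1656, 2699 and 1458 normalised counts in WT and 3632, 3529 and 5709.9 in KO, without overlap (log2 change 1.16, SE 0.28, limma adjusted p = 0.0623). Steap4, Vipr1 and Rgs5 had log2 changes of 0.58, 0.40 and 0.25 (limma adjusted p = 0.444, 0.355 and 0.863). Gfap, an astrocyte filament gene used as a stellate cell marker, was at 0 in 3 libraries and Ntm at 0 in 4, and neither was tested.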

How the data were processed

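The 6 libraries of F4/80+ liver cells were grouped by the genotype and treatment in their labels. Tools named in the submitters' processing notes are STAR 2.4.0k, HTSeq 0.5.3, DESeq 1.8.3, bcl2fastq 2.17 and SAMtools, with the build GRCm38.p4; the annotation release and the counting options, strand included, were not given in the sources used here. Per the file headers the deposited signal is a normalised count for each of 79382 Ensembl transcripts. All values (100%) were whole multiples of 1 value per library within a tolerance of 0.001, so whole reads were recovered. GENCODE vM21 matched 78344 transcripts, and the 1038 others (1.02% to 1.31% of reads) were not analysed here. Of the 43 genes 34 had more than 1 transcript, and for 13 of them the second was within 5% of the first. Col14a1, Pdgfrb, Postn and Tnc held transcripts with equal values in all 6 libraries, so the same reads were counted for more than 1 isoform. The sum of a gene's transcripts can therefore count a read more than once.

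After a filterByExpr step on recovered reads, genes were tested with limma 3.58.1 (R 4.3.3), using a trended prior and log2(value + 1), in a model of genotype alone. Log2 changes on this scale understate changes of low genes. Two-sided p-values were adjusted by Benjamini-Hochberg, and a gene was called at an adjusted p under 0.05. Alternatives were edgeR 4.0.16, which called 280 genes on the recovered reads, DESeq2 1.42.0, TMM factors in limma, pseudocounts of 0.5 and 5, no filter, a CPM of at least 1 in 3 libraries, the sum of a gene's transcripts, a replicate block and fits without each library. Chain ratios were compared by exact permutation tests. No pair of libraries was a duplicate: at most 0.922% of tested genes had equal reads. In data simulated for KO against WT with 15625 genes, with 50 genes at each log2 change of 1, 2, 3 and 4, limma found 12%, 70%, 88% and 90% of them and 10 of the 15425 genes left alone.

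The 43 genes and all lists were chosen with earlier results of these data known. Named genes are the 43, the 4 of highest mean in the collagen processing and further stellate lists with any called there, the 2 of highest mean in each marker list (macrophage, endothelial, hepatocyte, mesothelial, cholangiocyte, vascular smooth muscle, lymphocyte and erythroid) and Adgre1; 1 gene so taken is not reported here. Outside this rule, Cnn1, Gfap and Ntm were named for being at 0 in some libraries and Clec4f, Mia3, Pcolce, Crtap, Fkbp10, Serpinh1 and Bmp1 for their values, all after these were seen. Depth ran from 10793260 to 22166360 reads per library, and the 3 libraries in each group limit the precision.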

Additional observations from a re-analysis of the deposited data

How the results depend on the processing

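Of 630 values of the 42 tested genes under 15 alternatives, 574 kept their direction and their side of the threshold, 16 lost a call, 14 gained one and 26 changed sign, in 10 genes. The number of the 42 called was 2 with pseudocounts of 0.5 and 5 (2.36% and 2.73% of all genes), with no filter (1.24%) and with the CPM filter (2.61%). It was 0 with edgeR, 0 with TMM factors in limma (1.87%), 0 with the sum of a gene's transcripts (1.44%) and 10 with DESeq2. Without 1 library it was 0 to 7: 7 without KO replicate 1 (5.18% of all genes) and 0 without each other library. Over all genes the count was 381 in the main test, 1407 with DESeq2 and 232 with the sum of transcripts, and 8 to 810 without 1 library (8 without KO replicate 3). Of these calls 85.6% were higher in KO in the main test, 75.7% with TMM factors and 68.1% with DESeq2. Collagen processing genes called were 6 with DESeq2 and 0 to 6 without 1 library, against 0. The cause was not tested.

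The median log2 change of the 42 genes stayed above 0, from 0.43 (without WT replicate 3) to 1.01 (without WT replicate 1). Signs changed for Col4a5 with TMM factors (-0.0076), Lamb1 with the sum of transcripts (-0.010), Tagln with edgeR (-0.32) and DESeq2 (-0.32) and Thy1 with edgeR (-0.016) and TMM factors (-0.043). Without 1 library the log2 change ran from -0.20 to 0.41 for Col4a5, from -0.27 to 0.30 for Lamb1, from -0.62 to 0.22 for Col14a1, from -0.16 to 0.47 for Loxl3 and from -0.41 to 0.24 for Fbln5. It ran from -0.25 to 0.66 for Postn, from -0.76 to 0.53 for Tagln, from -0.93 to 0.056 for Lrat, from -1.16 to 0.031 for Reln and from -0.46 to 0.42 for Thy1. The log2 ratio ran from -0.046 to 0.20 for Col1a1 to Col1a2 and from -0.052 to 0.37 for Col3a1 to Col5a2. WT replicate 1 was the library without which Lrat, Reln and both ratios changed sign.

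Samples of the same replicate number did not deviate together (correlations of -0.015, 0.088 and -0.14). With so few libraries this cannot settle whether the numbers pair the libraries, and the labels do not say. With a replicate block 532 genes (3.4%), 3 of the 42 (Col1a1, Col5a3 and Loxl1) and 0 collagen processing genes were called.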
